A study of Mus musculus with 37 samples.

Results

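The expression of 32 genes of hepatic fatty acid oxidation, ketogenesis and the PPAR-alpha response was followed through liver regeneration in mice with and without Nox4, an NADPH oxidase that makes hydrogen peroxide. The 32 genes were picked by symbol from a list of the pathway, out of 55487 genes in the count table. All 32 were among the 15564 genes that passed the filter on low counts and were tested. Livers came from NOX4-/- mice (knockout, KO) and WT mice after partial hepatectomy, in which most of the liver is removed, or after a sham operation. There were 3 KO and 3 WT livers at 6 h, 4 KO and 3 WT at 24 h, 4 KO and 4 WT at 48 h, 3 KO and 3 WT at 7 d, and 5 KO and 5 WT sham livers, 37 libraries in all. The sham livers of a genotype form 1 group of mixed times, namely 24, 48, 48, 72 and 6 h for KO replicates 1 to 5, and 7 d and 48, 24, 48 and 6 h for WT replicates 1 to 5. Every liver taken 6 h after hepatectomy was male, and each other group held both sexes. The labels give no strain, age, deleted exon, diet or hour of sampling.

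Liver burns fatty acids in mitochondria and peroxisomes. Long chains enter the mitochondrion bound to carnitine, are shortened by a repeating spiral of oxidation, hydration, oxidation and thiolysis, and yield acetyl-CoA that can be turned into ketone bodies for export. PPAR-alpha, a nuclear receptor activated by fatty acids, drives many of these genes in fasting, together with peroxisomal oxidation, the microsomal omega hydroxylases and secreted factors such as FGF21. After partial hepatectomy the remnant liver takes up fat from the circulation and stores it for a time.

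Nox4 itself checked the genotype labels. In males it lay between 0.325 and 4.98 CPM, the read count scaled to library size, in 12 KO livers and between 3.95 and 23.5 CPM in 11 WT livers. In females it lay between 0 and 0.245 CPM in 7 KO livers and between 0.778 and 3.36 CPM in 7 WT livers. Averaged over the 5 stages it was lower in KO livers, at -2.82 on the log2 scale (SE 0.28, edgeR quasi-likelihood test with adjusted p = 4.27e-08), although at 6 h and 7 d alone it was not called (adjusted p = 0.0577 and 1.0). Total counts ran from 26232544 to 48827025 per library. In WT 24 h replicate 3 and WT 48 h replicate 3, 6 skeletal muscle markers summed to 1265 and 443 CPM, against at most 94.9 CPM in any other library. The labels name no animals, so p-values speak for the variation among the 37 libraries and no more. In whole liver, fewer cells of a type and less RNA per cell cannot be told apart.

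Promoters are shown for 2 pairs of members that the results below set side by side. Hadha and Hadhb encode the alpha and beta subunits of the mitochondrial trifunctional protein and lie on opposite strands of chromosome 5. Their RefSeq starts, used for the windows, are 273 bases apart. The gene annotation used for exon lengths places their 5′ ends closer together, at 30155162 and 30155248. Their RefSeq windows (GRCm38.p6, 250 bases before to 50 after each start) are chr5:30154931-30155230 on the minus strand and chr5:30155003-30155302 on the plus strand. Each is printed 5′ to 3′ on its own strand, with the 228 bases that both windows hold in capitals.
Hadha: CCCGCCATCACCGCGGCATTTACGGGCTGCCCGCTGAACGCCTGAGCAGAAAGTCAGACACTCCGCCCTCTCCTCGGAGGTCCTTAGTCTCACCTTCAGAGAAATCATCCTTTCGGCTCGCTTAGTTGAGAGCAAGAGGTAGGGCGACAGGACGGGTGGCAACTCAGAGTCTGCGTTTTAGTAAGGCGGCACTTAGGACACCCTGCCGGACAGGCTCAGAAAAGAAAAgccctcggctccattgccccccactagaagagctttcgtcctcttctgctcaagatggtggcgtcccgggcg
Hadhb: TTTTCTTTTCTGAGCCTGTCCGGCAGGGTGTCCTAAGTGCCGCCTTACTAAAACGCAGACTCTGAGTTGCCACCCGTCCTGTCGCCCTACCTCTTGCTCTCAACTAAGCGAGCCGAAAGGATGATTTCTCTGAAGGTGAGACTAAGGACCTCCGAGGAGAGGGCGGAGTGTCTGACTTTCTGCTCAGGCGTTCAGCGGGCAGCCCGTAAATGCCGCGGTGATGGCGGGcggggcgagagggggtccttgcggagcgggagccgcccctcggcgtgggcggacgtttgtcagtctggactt

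Acaa1b and Acaa1a are paralogous genes for peroxisomal 3-ketoacyl-CoA thiolase on chromosome 9, shown because Acaa1b was the only member that edgeR called between genotypes at a stage. Their windows are chr9:119157044-119157343 on the minus strand and chr9:119341044-119341343 on the plus strand. Capitals mark CCAAT on either strand, of which each window held 4.
Acaa1b: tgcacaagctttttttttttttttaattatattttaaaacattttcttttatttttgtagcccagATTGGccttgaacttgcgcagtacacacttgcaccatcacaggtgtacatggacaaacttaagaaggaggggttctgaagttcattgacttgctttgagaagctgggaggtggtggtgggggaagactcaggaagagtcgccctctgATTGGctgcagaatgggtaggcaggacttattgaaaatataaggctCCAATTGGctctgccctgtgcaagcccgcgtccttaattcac
Acaa1a: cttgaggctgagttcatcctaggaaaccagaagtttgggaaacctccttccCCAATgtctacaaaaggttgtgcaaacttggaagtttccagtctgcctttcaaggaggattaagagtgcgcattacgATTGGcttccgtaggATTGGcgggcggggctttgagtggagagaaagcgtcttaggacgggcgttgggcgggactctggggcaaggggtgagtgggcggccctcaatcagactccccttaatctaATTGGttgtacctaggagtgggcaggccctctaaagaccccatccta

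RefSeq windows of this kind were found for 24 of the 32 members, and short motifs were searched on both strands. A member counted if any window under its symbol held the motif, whereas the share over all is of single windows, so the 2 are not the same measure. CCAAT was present for 11 of the 24 members (45.8%), against 37.4% of 32851 windows of the same length. AGGTCA, the unit recognised by PPAR-alpha and its partner RXR, was present for 5 of 24 members (20.8%), against 16.3% of all windows. These 5 were Cpt1a, Acadm, Acadvl, Echs1 and Creb3l3. AGGTCANAGGTCA, which contains AGGTCA, was in 0 of the 24 and in 0.0396% of all windows. TATAAA was present for 1 of the 24 members (4.17%), Fgf21, against 13.6% of all windows. These matches describe letters in a window only.

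The members ranged from steady to highly variable. The SD of log2(CPM + 1) within groups, pooled over the 10 groups, was under 0.5 for 20 members, from 0.5 to 1 for 7, and over 1 for 5. The 9 genes of the mitochondrial spiral had SDs of 0.21 to 0.38, the lowest being that of Echs1, the short-chain enoyl-CoA hydratase. The widest were Cyp4a14 (2.01) and Cyp4a10 (1.28), omega hydroxylases of fatty acids, Pdk4 (1.83), the kinase that shuts off pyruvate dehydrogenase and so spares glucose, Abcd2 (1.196), a peroxisomal transporter of fatty acyl-CoA, and Fgf21 (1.15), a fasting hormone of hepatocytes. Per kilobase of exon, the mean level over all livers was highest for Acaa2, the mitochondrial thiolase, at 504 CPM per kb. It was lowest for Fgf21 at 7.21 and Abcd2 at 2.56 CPM per kb.

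**Figure D1:**
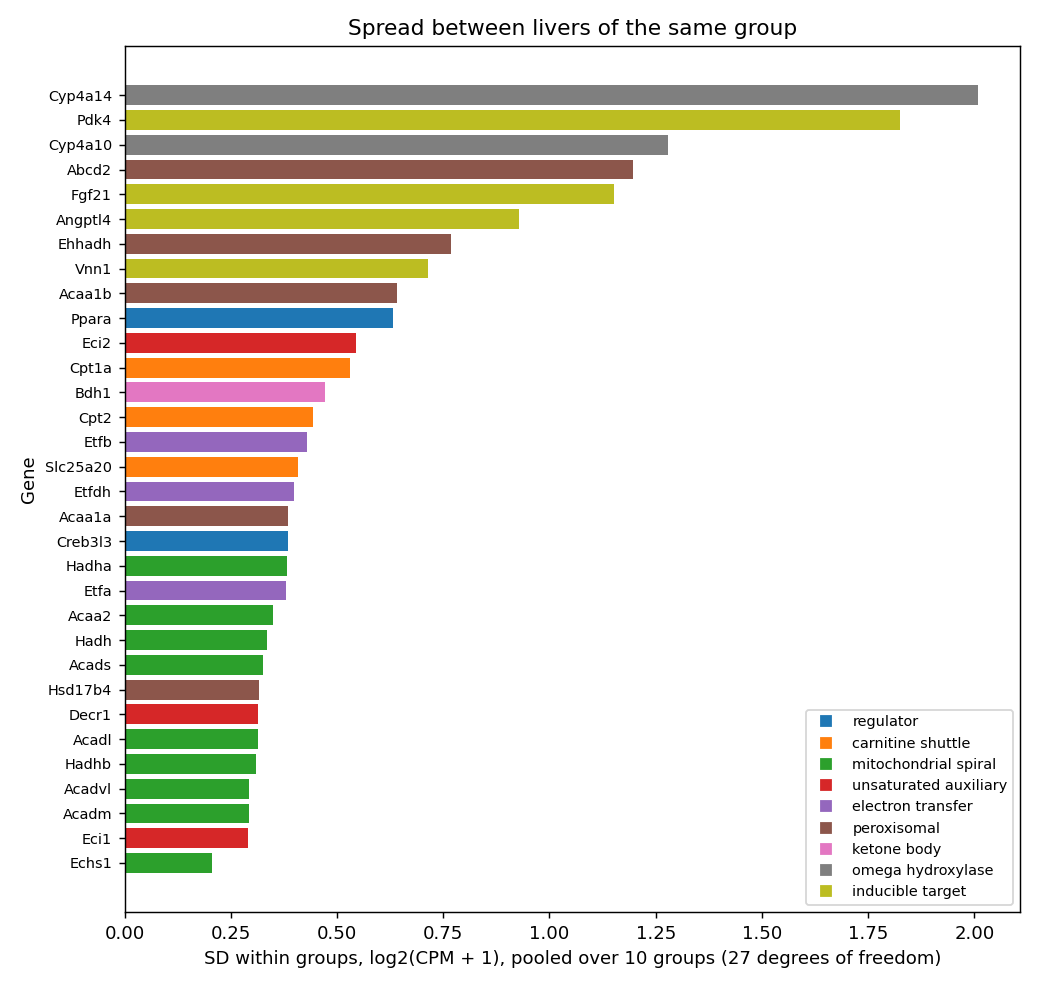
Spread between livers of the same group for the 32 members, as the SD of log2(CPM + 1) within groups pooled over 10 groups, with bars coloured by role. The 5 members over 1 are Cyp4a14, Pdk4, Cyp4a10, Abcd2 and Fgf21, and the 9 genes of the mitochondrial spiral stay between 0.21 and 0.38.

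The log2 ratio of Hadha to Hadhb in CPM had a median of 1.02 and an SD of 0.31 over 37 livers, from 0.27 in KO 24 h replicate 3 to 1.66 in WT sham replicate 4. The log2 ratio of Acaa1b to Acaa1a had a median of 1.59 and an SD of 0.74, from -0.50 in WT 24 h replicate 1 to 2.38 in KO 24 h replicate 2. Counting can divide reads of close copies, so the levels of Acaa1a, Acaa1b, Cyp4a10 and Cyp4a14 are less certain. The labels name a stranded kit but not how strand was used in counting, and Acadvl, Hadha, Echs1, Acaa1a, Acaa1b, Eci2, Etfdh and Bdh1 overlap a gene on the opposite strand.

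**Figure D2:**
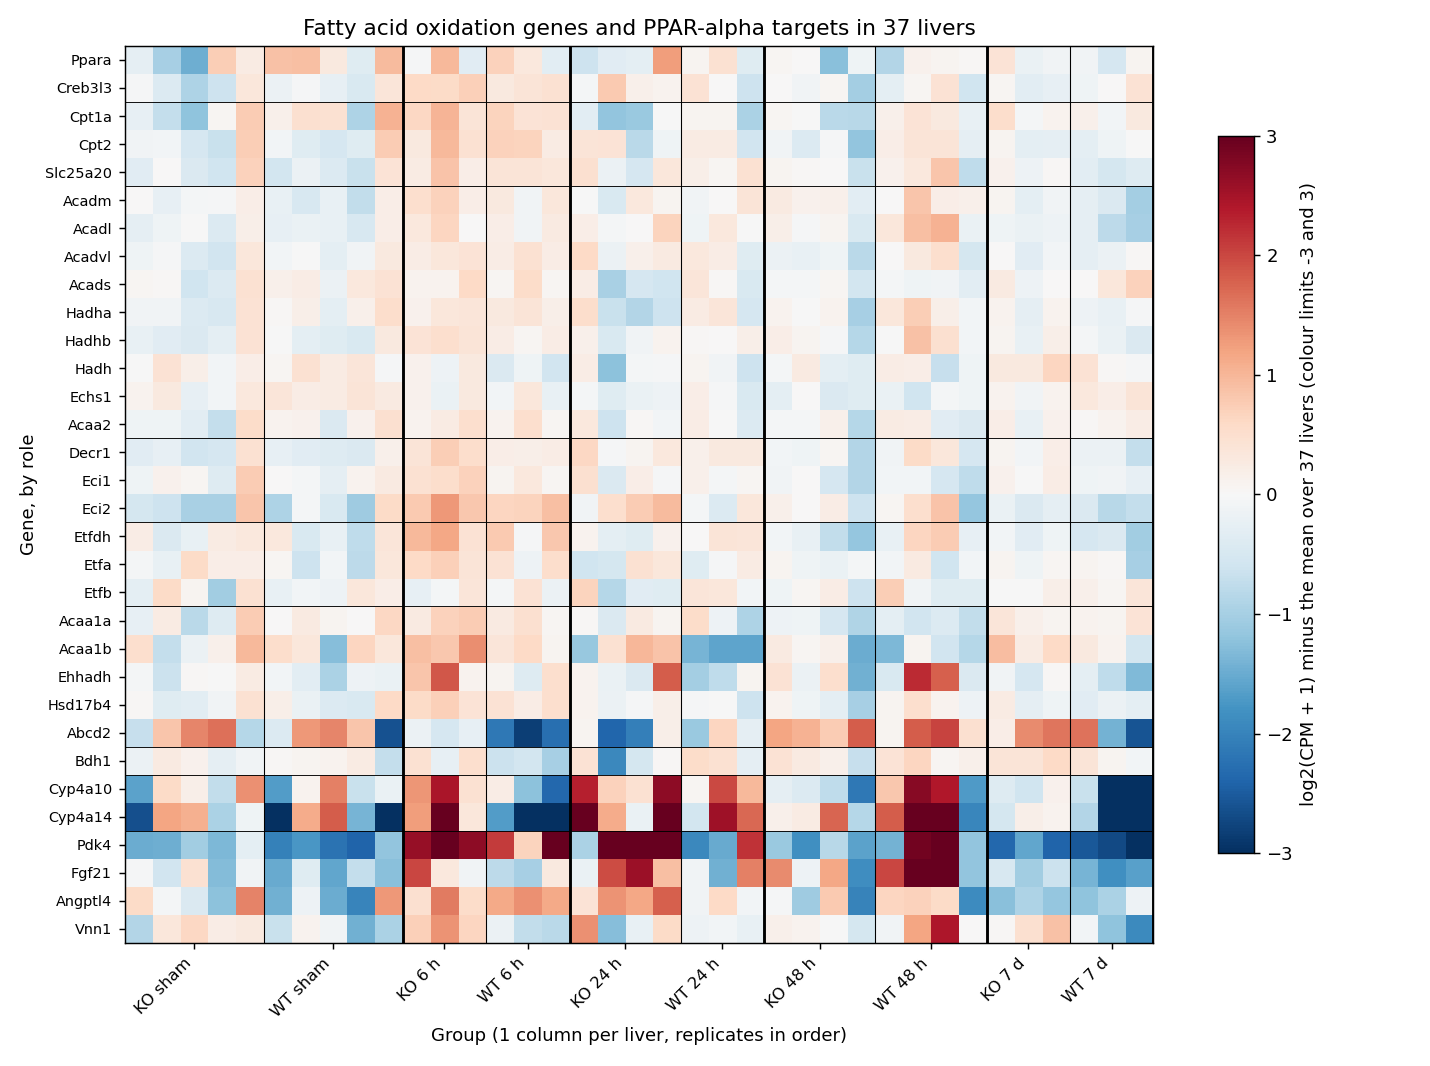
Levels of the 32 members (rows, grouped by role) in 37 livers (columns, by group), coloured by log2(CPM + 1) minus the gene's mean over all livers, with colour limits at -3 and 3. The omega hydroxylases, Pdk4, Fgf21 and Abcd2 differ most between livers of 1 group, and KO 48 h replicate 4 was the lowest of the 37 livers for 13 members.

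At 6 h after hepatectomy, Pdk4 and Cyp4a14 rose in KO livers against KO sham livers, 2 of 32 members, where 6.62% of all genes were called. Pdk4 had 58.4, 358 and 61.2 CPM in KO 6 h livers, against 2.47, 2.54, 3.71, 2.84 and 6.88 CPM in KO sham livers. The groups did not overlap, and the log2 change was 5.64 (SE 1.33, edgeR adjusted p = 0.00987). Cyp4a14 had 145, 544 and 75.9 CPM in KO 6 h livers and 8.91, 139, 126, 30.9 and 54.8 CPM in KO sham livers. The female KO sham livers, replicates 2 and 3, lay inside the range of the all-male KO 6 h livers, and with sex in the fit the log2 change was 3.30 (SE 0.98, edgeR adjusted p = 0.037). Of the 32 members, 30 lay above 0, with a median log2 change of 0.53, whereas 49.7% of all genes lay above 0. At an unadjusted p under 0.05 there were 14 members, against 21.9% of all genes.

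Single livers decided these calls. Without KO 6 h replicate 2, the highest of all 37 livers for 7 members, 0 members were called and Pdk4 had an adjusted p of 0.0511. In that liver all 8 adipocyte markers were detected and summed to 56.4 CPM, against 11.5 and 13.05 CPM in KO 6 h replicates 1 and 3 and 3.19 to 19.2 CPM in KO sham livers. Their part in the result was not tested. Cyp4a14 was also lost without KO sham replicate 1, 2, 3 or 4 or KO 6 h replicate 1, with an adjusted p of up to 0.243, which left 1 call each time. Without KO sham replicate 5, the KO sham liver taken at 6 h, 8 members were called, with no share of all genes given for that fit. That liver stood above the other 4 KO sham livers for 23 of 32 members (71.9%), against 23.8% of all genes, and lay inside the KO 6 h range for 19. Eci2, an isomerase for unsaturated chains, had 296, 425 and 303 CPM in KO 6 h livers and 118, 111, 87.1, 87.5 and 305 CPM in KO sham livers, of which only replicate 5 reached the KO 6 h range. In the same way WT sham replicate 5, also taken at 6 h, stood above the other 4 WT sham livers for 21 members (65.6%), against 31.8% of all genes, and below them for 3, Hadh, Bdh1 and Abcd2, against 30.0%. With 1 such liver per genotype, hour and liver cannot be told apart.

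As a listed alternative, the 6 h sham livers of both genotypes were left out, and 14 members were then called higher in KO 6 h livers and 0 lower, where 11.9% of all genes were called. The livers left out were the only sham livers matched in time to the 6 h groups, and the KO one was above the others for 23 members, whose log2 changes become larger by construction. The 3 genes of the carnitine shuttle were not called with all sham livers. Cpt1a, the rate-limiting carnitine palmitoyltransferase, had a log2 change without them of 1.15 (SE 0.35, edgeR adjusted p = 0.0288), against 0.78 (SE 0.36, adjusted p = 0.203) with them, Cpt2, its partner in the inner membrane, had 0.91 (SE 0.29, adjusted p = 0.036), against 0.56 (SE 0.31, adjusted p = 0.299) with them, and the carrier Slc25a20 had 0.91 (SE 0.27, adjusted p = 0.0249), against 0.54 (SE 0.30, adjusted p = 0.304) with them. Of the genes for unsaturated chains, Eci2 had 1.80 (SE 0.33, adjusted p = 0.00074) without them and 1.21 (SE 0.38, adjusted p = 0.0507) with them. The dienoyl-CoA reductase Decr1 had 1.04 (SE 0.22, adjusted p = 0.00274) without them and 0.76 (SE 0.24, adjusted p = 0.0523) with them, and Eci1 had 0.66 (SE 0.22, adjusted p = 0.0461) without them and 0.40 (SE 0.23, adjusted p = 0.309) with them. The other calls without them were Acadl, the long-chain acyl-CoA dehydrogenase, Hadhb, Acaa1a, the peroxisomal multifunctional enzyme Hsd17b4, Cyp4a10, Cyp4a14, Pdk4 and Creb3l3, a liver transcription factor that works with PPAR-alpha. Creb3l3 had 381, 374 and 412 CPM in KO 6 h livers and 245, 187, 131, 161 and 314 CPM in KO sham livers, which do not overlap even with replicate 5. With all sham livers in the fit its log2 change was 0.81 (SE 0.26, adjusted p = 0.0585).

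**Figure D3:**
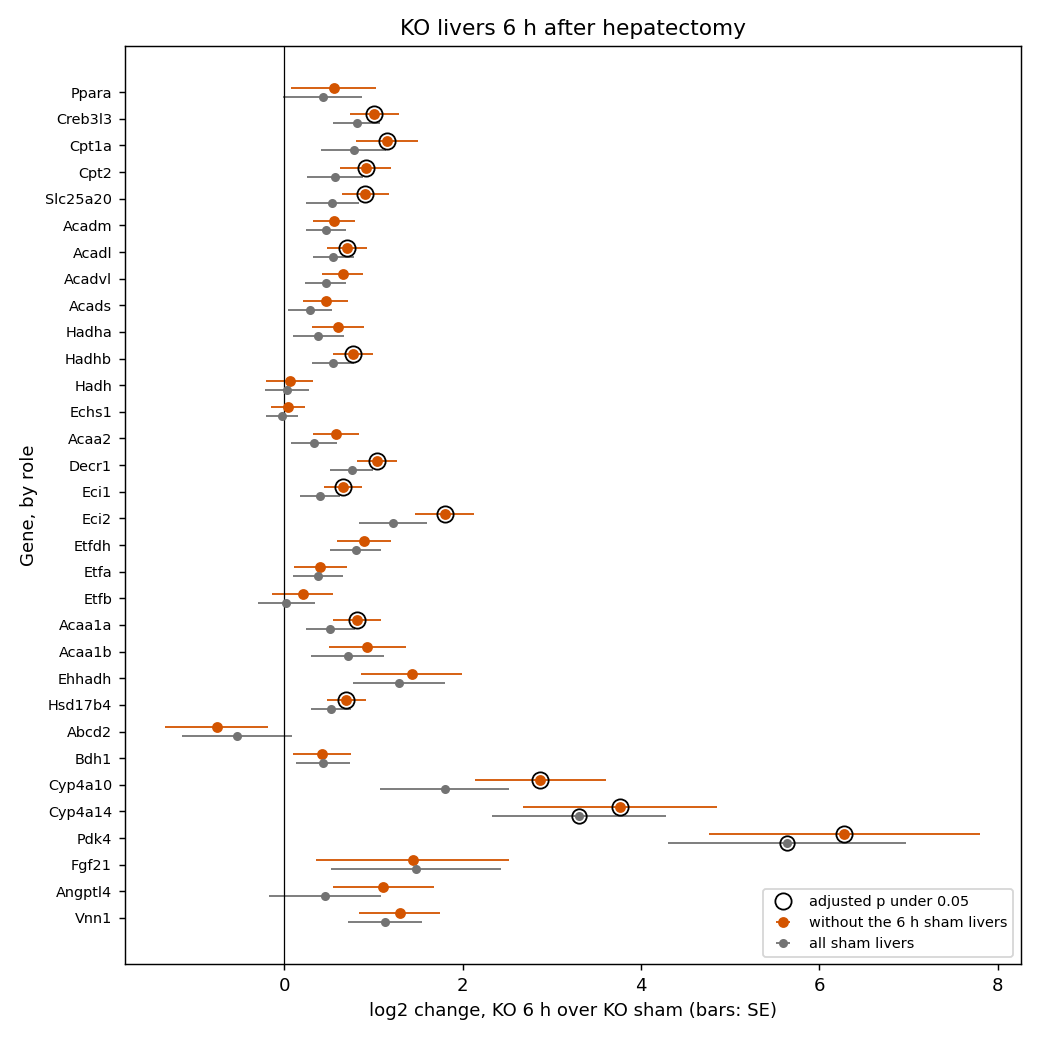
Log2 change of each member in KO livers 6 h after hepatectomy over KO sham livers, with all sham livers and without the 6 h sham livers of both genotypes; bars are SE and circled points have an adjusted p under 0.05. There are 2 circled points with all sham livers and 14 without the 6 h ones, which were the sham livers matched in time.

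In WT livers at 6 h, Pdk4 rose and Abcd2 fell, 2 of 32 members, where 7.86% of all genes were called. Pdk4 had 40.7, 14.4 and 794 CPM in WT 6 h livers and 1.38, 1.89, 1.09, 0.848 and 3.26 CPM in WT sham livers, a log2 change of 7.68 (SE 1.46, edgeR adjusted p = 0.00268). Every WT 6 h liver was above every WT sham liver, but replicate 3 set the size. Without it 0 members were called, and the log2 change of Pdk4 was 4.32 (adjusted p = 0.0948). Ckm, the muscle creatine kinase, was at 0 in all 3 WT 6 h livers. In replicate 3, 4 cholangiocyte markers summed to 119.6 CPM, against 26.9 and 23.9 CPM in replicates 1 and 2 and 9.85 to 21.4 CPM in WT sham livers. Its 5 neutrophil markers summed to 64.9 CPM, against 24.2 and 31.3 CPM in replicates 1 and 2 and 0.715 to 7.97 CPM in WT sham livers. Their part in the result was not tested. Abcd2 had 1.44, 0.531 and 1.26 CPM in WT 6 h livers and 7.12, 25.6, 29.1, 18.1 and 0.7801 CPM in WT sham livers, a log2 change of -2.29 (SE 0.73, adjusted p = 0.0495). The low sham liver was the one taken at 6 h. The Abcd2 call was lost without any of WT sham replicates 1 to 4 or WT 6 h replicates 1 to 3, with an adjusted p of up to 0.168. Without WT sham replicate 5 there were 5 calls, with no share of all genes given for that fit. Without the 6 h sham livers of both genotypes there were 6, where 18.9% of all genes were called. The WT sham liver left out was the only one matched in time, and was above the others for 21 members. Those 6 were Cpt2, Slc25a20, Eci2, Pdk4 and Angptl4 higher and Abcd2 lower. Angptl4, a secreted inhibitor of lipoprotein lipase, had 208, 245 and 209 CPM in WT 6 h livers and 33.9, 85.3, 32.9, 23.3 and 234 CPM in WT sham livers, of which replicate 5 alone was as high.

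Between genotypes at 6 h, where all 6 livers were male, edgeR called 0 members and 0.116% of all genes. DESeq2 called 2, Cyp4a14 and Abcd2, with no share of all genes given for DESeq2. In edgeR, 5 members had an unadjusted p under 0.05, against 10.6% of all genes. The genotypes did not overlap for 10 members (31.2%), all higher in KO livers, against 9.19% of all genes, and for 0 members lower in KO livers, against 9.29%. Cyp4a14 had 145, 544 and 75.9 CPM in KO 6 h livers, against 18.2, 5.48 and 4.14 CPM in WT 6 h livers (log2 change 4.78, SE 1.26, edgeR adjusted p = 0.126). Cyp4a10 had 246, 532 and 135 CPM in KO 6 h livers, against 113, 40.5 and 18.2 CPM in WT 6 h livers (log2 change 2.41, SE 0.86, adjusted p = 0.299). In both hydroxylases the lowest KO liver was above the highest WT liver, and KO replicate 2 was the highest. Abcd2 had 8.53, 6.65 and 8.099 CPM in KO 6 h livers, against 1.44, 0.531 and 1.26 CPM in WT 6 h livers (log2 change 2.83, SE 0.76, adjusted p = 0.13). Vnn1, a pantetheinase that responds to PPAR-alpha, had 36.96, 57.1 and 34.9 CPM in KO 6 h livers, against 19.2, 12.8 and 12.2 CPM in WT 6 h livers (log2 change 1.55, SE 0.48, adjusted p = 0.216).

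The ketone body gene Bdh1, which interconverts acetoacetate and beta-hydroxybutyrate, had 227, 139 and 234 CPM in KO 6 h livers, against 106, 113 and 82.5 CPM in WT 6 h livers (log2 change 0.99, SE 0.34, edgeR adjusted p = 0.272). The other members without overlap were Hadhb, Acaa1b, Decr1, Eci1 and Creb3l3. Ppara, the receptor gene, had 47.8, 96.3 and 37.99 CPM in KO 6 h livers and 79.1, 61.1 and 38.8 CPM in WT 6 h livers, which overlap, with a log2 change of 0.03 and a 95% interval of -0.99 to 1.04. In the interaction of genotype and hepatectomy at 6 h, 0 members were called by edgeR or DESeq2, 0.0% of all genes by edgeR, and 2 members had an unadjusted p under 0.05 (4.59% of all genes).

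At 24 h the genotypes differed in Acaa1b, 1 of 32 members, where 18.6% of all genes were called. Acaa1b had 188, 569, 826 and 747 CPM in KO 24 h livers and 156, 136 and 137 CPM in WT 24 h livers. Every KO liver was above every WT liver, though KO replicate 1 was close to them, and it was the 1 member that separated the genotypes, where 6.14% of all genes did so higher in KO livers and 5.08% lower. The log2 change was 2.05 (SE 0.46, edgeR adjusted p = 0.00432). It kept its call when each of the 7 livers was left out (adjusted p of up to 0.0259) and was lost only when the compared groups were fitted alone (adjusted p = 0.266, from 6.24e-07 over 7 alternatives). Markers of hepatocytes, cholangiocytes and Kupffer cells were among those that moved with this comparison. The 11 hepatocyte markers summed to 96726 to 161272 CPM in KO 24 h livers and 47860.0 to 93481 CPM in WT 24 h livers, with no overlap. The 6 Kupffer cell markers summed to 285, 70.8, 82.4 and 125 CPM in KO 24 h livers and 193, 420.3 and 226 CPM in WT 24 h livers, where only KO replicate 1 lay inside the WT range. The 4 cholangiocyte markers summed to 9.07, 19.0, 131 and 15.4 CPM in KO 24 h livers. In WT 24 h livers they summed to 4.57, 6.86 and 5.59 CPM, with no overlap between genotypes. The part of any of these in the result was not tested. The count of members was 5 without KO 24 h replicate 1, with Acads, Hadha, Bdh1 and Pdk4 added, and 2 without WT 24 h replicate 3, with Pdk4 added. No share of all genes is given for these fits.

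Against sham livers, Acaa1b fell in WT 24 h livers, the 1 member called there (0.925% of all genes). WT sham livers had 597, 521, 169.6, 647 and 522 CPM, and the log2 change was -1.86 (SE 0.44, edgeR adjusted p = 0.0385). Of these, replicate 3, at 169.6 CPM, was near the WT 24 h livers and was the only WT sham liver taken at 24 h. KO sham livers had 583, 252, 368, 462 and 806 CPM, of which replicate 1, at 583 CPM, was the only one taken at 24 h. The log2 change in KO 24 h livers was 0.29 (SE 0.38, adjusted p = 0.59). The interaction, which tests whether these responses differ, was 2.14 (SE 0.57, adjusted p = 0.0227), 1 of 32 members against 8.47% of all genes. With 1 sham liver taken at 24 h per genotype, hour and liver cannot be told apart. The fall in WT livers was lost without WT sham replicate 1, 2 or 4 or WT 24 h replicate 1 or 3 (adjusted p of up to 0.331). The interaction was lost without KO 24 h replicate 3 or 4 or WT 24 h replicate 3 (adjusted p of up to 0.0949), and without KO 24 h replicate 1 it was joined by Abcd2. The last WT 24 h value, 137 CPM, comes from the liver with 1265 CPM of muscle markers, whereas in the other WT 24 h livers these summed to 0.607 and 0.667 CPM. The same liver had the highest adipocyte sum of the 37, 97.4 CPM with all 8 markers detected, and the lowest hepatocyte sum, 47860.0 CPM. The part of these in the result was not tested.

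The paralog Acaa1a had 153, 109, 179 and 157 CPM in KO 24 h livers and 220.3, 135 and 78.1 CPM in WT 24 h livers, which overlap, with a log2 change of 0.09 and a 95% interval of -0.50 to 0.69. The log2 ratio of Acaa1b to Acaa1a was 0.30, 2.38, 2.20 and 2.25 in KO 24 h livers and -0.50, 0.02 and 0.81 in WT 24 h livers. KO replicate 1 again sat among the WT livers.

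**Figure D4:**
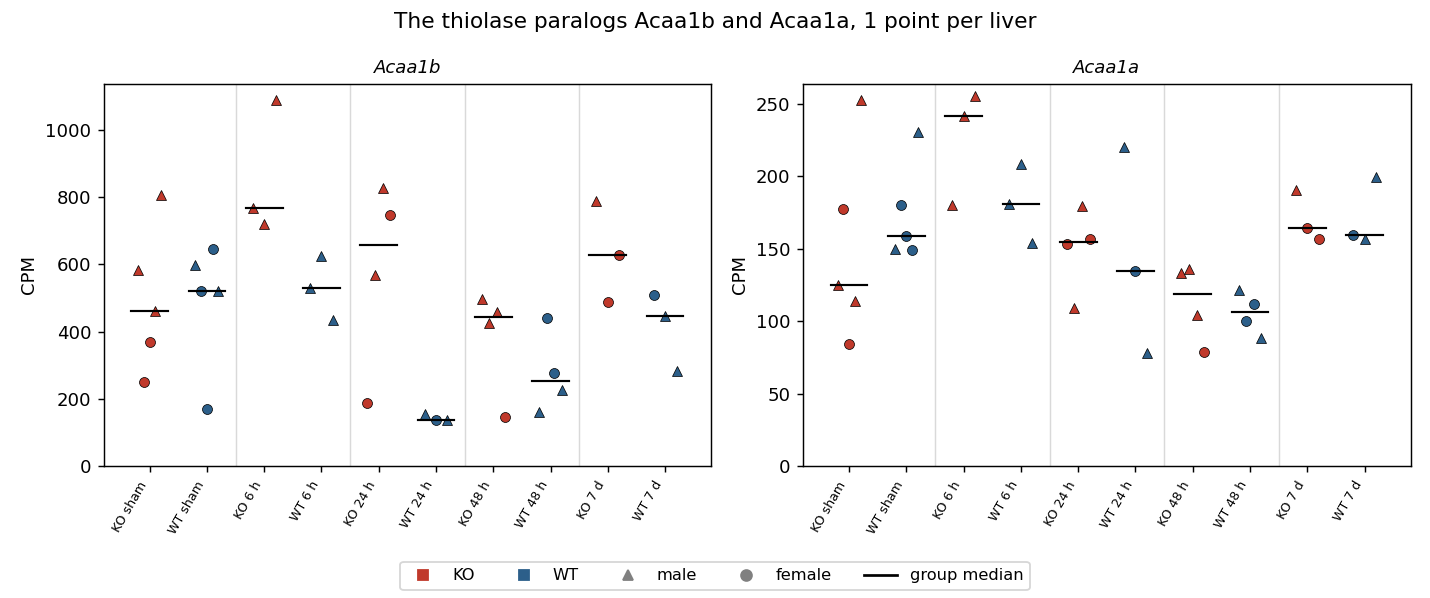
Acaa1b and Acaa1a in CPM in each of 37 livers, 1 point per liver, by genotype and stage. For Acaa1b the KO 24 h livers lie at 188 to 826 CPM and the WT 24 h livers at 136 to 156 CPM, whereas for Acaa1a the genotypes overlap.

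In KO 24 h livers against KO sham livers, Pdk4 rose and Abcd2 fell, 2 of 32 members, where 28.0% of all genes were called. Pdk4 had 4.04, 99.6, 87.7 and 1152 CPM in KO 24 h livers, against 2.47 to 6.88 CPM in KO sham livers, a log2 change of 6.16 (SE 1.36, edgeR adjusted p = 0.00146). Replicate 1 lay within the sham range and replicate 4 was the highest of all 37 livers. In WT 24 h livers Pdk4 had 1.56, 2.39 and 42.9 CPM, the last being the liver with high muscle and adipocyte markers, whose part in that value was not tested. Between genotypes the log2 change of Pdk4 was 3.91 (SE 1.55, adjusted p = 0.0732), and DESeq2 called it. Abcd2 had 10.5, 1.06, 1.598 and 11.2 CPM in KO 24 h livers and 5.75, 18.3, 29.03, 33.3 and 5.002 CPM in KO sham livers, a log2 change of -2.43 (SE 0.62, adjusted p = 0.00448). The 2 lowest were the males and the groups overlapped. Both calls held when each of the 9 livers was left out. Without KO sham replicate 5 or without KO 24 h replicate 1, 6 members were called, with no share of all genes given for those fits. Without the 6 h sham livers 7 members were called, where 4682 of 15557 genes were called.

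Other targets spread widely in KO 24 h livers. Fgf21 had 2.85, 16.2, 24.9 and 7.27 CPM in KO 24 h livers and 3.12, 0.611 and 11.5 CPM in WT 24 h livers (log2 change 1.35, SE 1.00, edgeR adjusted p = 0.342). Angptl4 had 127, 242, 211 and 330.0 CPM in KO 24 h livers and 88.1, 144 and 89.3 CPM in WT 24 h livers (log2 change 1.11, SE 0.67, adjusted p = 0.235). Ehhadh, the bifunctional enzyme of the peroxisomal spiral, had 166, 133, 114 and 541 CPM in KO 24 h livers and 75.5, 90.8 and 164 CPM in WT 24 h livers (log2 change 0.97, SE 0.57, adjusted p = 0.226). KO 24 h replicate 4 was the highest of its group for Angptl4, Ehhadh and Pdk4, and also for Ppara, with 31.1, 38.1, 39.7 and 117 CPM in KO 24 h livers and 51.7, 66.9 and 37.4 CPM in WT 24 h livers. Cpt1a had 204, 109.6, 117 and 250.4 CPM in KO 24 h livers and 269, 265 and 129.8 CPM in WT 24 h livers (log2 change -0.34, SE 0.39, adjusted p = 0.562). The groups overlapped in each of these genes. Bdh1 had 224, 42.4, 114 and 169 CPM in KO 24 h livers and 244, 227 and 137 CPM in WT 24 h livers (log2 change -0.67, SE 0.32, adjusted p = 0.131).

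At 48 h in WT livers, 5 members rose and 1 fell against WT sham livers, 6 of 32, where 8.29% of all genes were called. Fgf21 had 16.7, 53.8, 34.7 and 0.952 CPM in WT 48 h livers and 0.542, 2.401, 0.492, 1.696 and 0.848 CPM in WT sham livers, a log2 change of 4.47 (SE 0.94, edgeR adjusted p = 0.00336). Cyp4a14 had 216, 2308, 1343 and 14.9 CPM in WT 48 h livers and 2.74, 132, 216, 22.2 and 3.87 CPM in WT sham livers, a log2 change of 4.00 (SE 0.96, adjusted p = 0.00826). Replicate 4 lay inside the sham range for both genes. For Cyp4a14 so did replicate 1, at 215.57 CPM against 215.63 CPM in WT sham replicate 3. Both calls held when each of the 9 livers was left out. Pdk4 had 2.64, 71.3, 169 and 3.26 CPM in WT 48 h livers, against 0.848 to 3.26 CPM in WT sham livers (log2 change 4.84, SE 1.33, adjusted p = 0.0207). Vnn1 had 20.5, 51.6, 123 and 22.3 CPM in WT 48 h livers and 13.4, 23.8, 20.4, 7.46 and 10.99 CPM in WT sham livers (log2 change 1.71, SE 0.39, adjusted p = 0.00563). Replicates 2 and 3, the females, carried the high values. In these, 7 of 8 adipocyte markers were detected and summed to 52.1 and 54.2 CPM, against 7.41 and 4.25 CPM in replicates 1 and 4 and 1.39 to 8.94 CPM in WT sham livers. Adipoq, the adipocyte hormone adiponectin, was at 3.25 and 1.07 CPM in replicates 2 and 3 and at 0 in replicates 1 and 4. High adipocyte sums also occurred with low Pdk4. KO 7 d replicate 2 had a sum of 85.2 CPM and Pdk4 at 2.31 CPM, and KO 48 h replicate 2 had 39.1 and 1.697 CPM. KO 6 h replicate 2, by contrast, had 56.4 and 358 CPM, and WT 24 h replicate 3 had 97.4 and 42.9 CPM. The part of adipocyte markers in the result was not tested. Acadl had 180.3, 267, 296 and 124 CPM in WT 48 h livers and 121, 125, 123, 102 and 164 CPM in WT sham livers (log2 change 0.75, SE 0.21, adjusted p = 0.0218). Echs1 was the member that fell, with 153, 116, 168 and 160.1 CPM in WT 48 h livers and 227, 206, 207, 231 and 212 CPM in WT sham livers, which do not overlap (log2 change -0.54, SE 0.16, adjusted p = 0.0341).

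The count at 48 h was 3 without WT sham replicate 2, WT sham replicate 4 or WT 48 h replicate 3. WT 48 h replicate 3 held 443 CPM of muscle markers and replicate 2 held 0.568 CPM. Without replicate 3, Vnn1 had an adjusted p of 0.063, and Pdk4 and Acadl were also lost. Pdk4 was lost too without WT sham replicate 2, 3 or 4 (adjusted p of up to 0.0896 over these 4), and Acadl without any of those or WT 48 h replicate 2 (up to 0.0962). Echs1 was lost without WT sham replicate 1, 2 or 4 or WT 48 h replicate 1 or 2 (up to 0.122).

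The WT 48 h livers divided by sex. Both females lay above both males for 21 of 32 members and below them for 0. The share of all genes with such an order was not computed, so the count cannot be read as particular to the members. Ehhadh had 728 and 535 CPM in the females and 113 and 113 CPM in the males. In a fit of males alone, 1 member was called in WT 48 h livers, Acaa1b, and the log2 change of Pdk4 was 0.38 (edgeR adjusted p = 0.98, from 3.41e-48 over 7 alternatives). In KO 48 h livers the 1 female, replicate 4, lay below all 3 males for 27 of 32 members and above them for 1. Here too no share over all genes was computed, and the order rests on 1 liver. In that liver the 11 hepatocyte markers summed to 77151 CPM, against 98015 to 112704 CPM in the 3 males. Its 6 Kupffer cell markers summed to 462 CPM, against 98.9 to 247 CPM in the males. The part of these in the result was not tested. With so few females, sex and liver cannot be told apart, nor can sex and the adipocyte markers in WT 48 h livers.

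**Figure D5:**
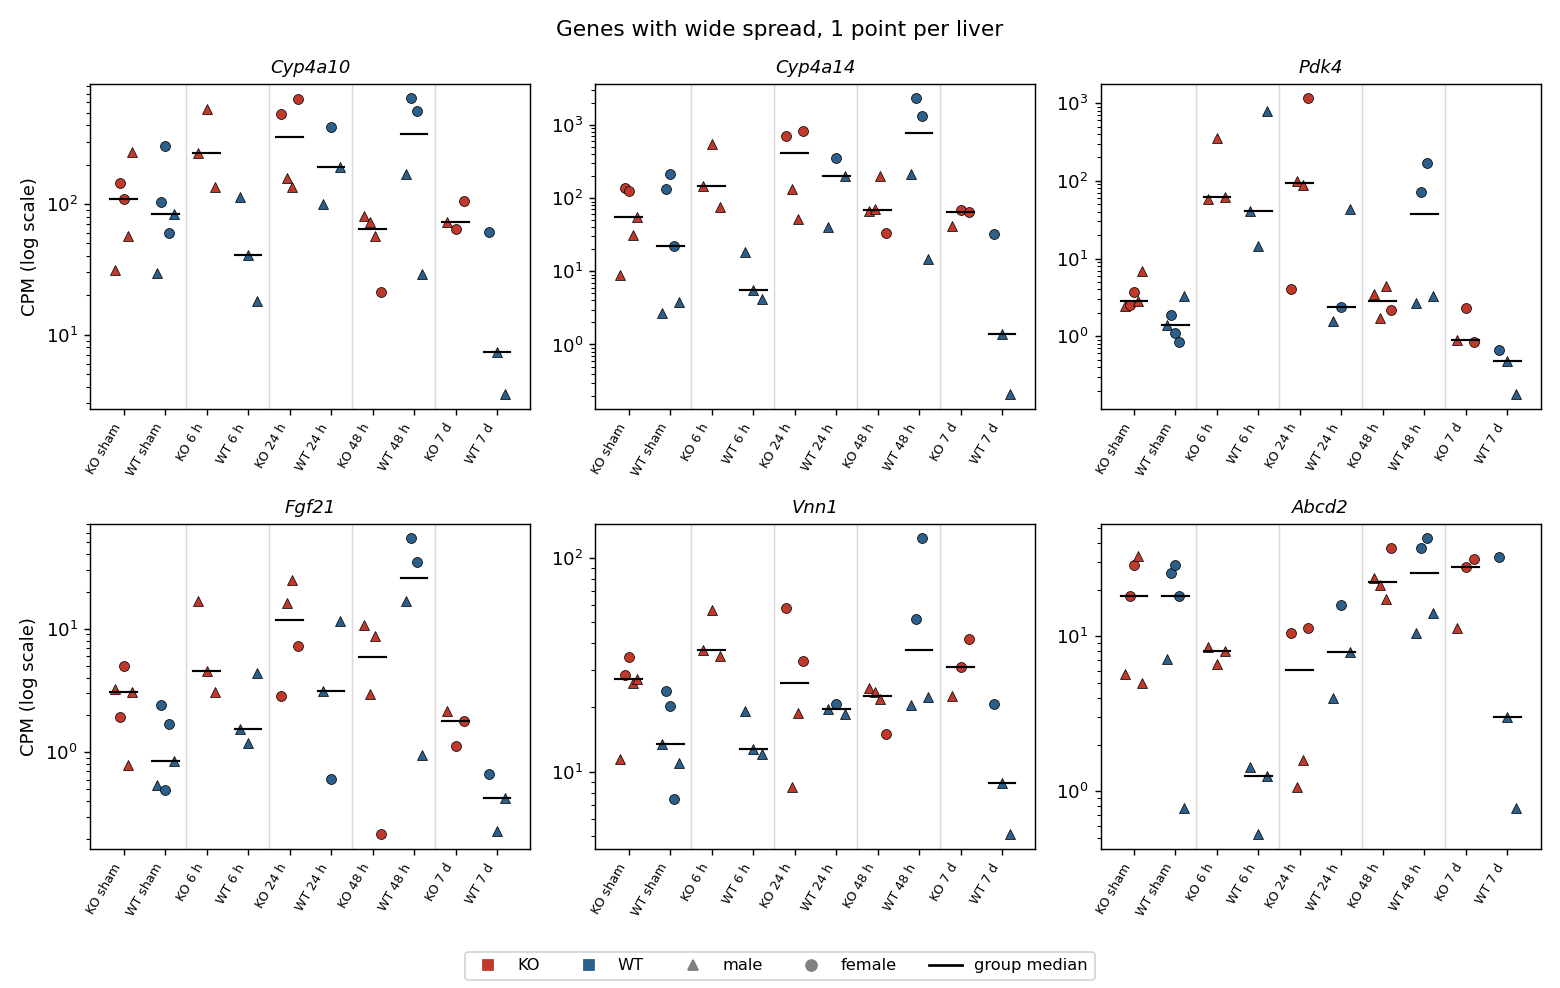
Cyp4a10, Cyp4a14, Pdk4, Fgf21, Vnn1 and Abcd2 in CPM on a log axis, 1 point per liver, by genotype and stage. Pdk4 lies above the sham range in all 3 livers of each genotype at 6 h, and the 2 female WT 48 h livers are the highest of their group for all 6 genes.

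In KO livers at 48 h, 0 of 32 members were called against KO sham livers by edgeR or DESeq2 (3.0% of all genes by edgeR), and 3 had an unadjusted p under 0.05 (13.3% of all genes). Without KO sham replicate 4, 1 was called, Abcd2. Pdk4 had 3.52, 1.697, 4.47 and 2.21 CPM in KO 48 h livers, against 2.47 to 6.88 CPM in KO sham livers. Between genotypes at 48 h, 0 members were called by edgeR or DESeq2 (0.341% of all genes by edgeR), and 8 had an unadjusted p under 0.05 (11.3%). Of the 32 members, 27 lay below 0 in KO over WT livers, where 50.4% of all genes did, with a median log2 change of -0.36, and 0 members separated the genotypes, against 3.45% of all genes higher and 4.68% lower in KO livers. Pdk4 had 3.52, 1.697, 4.47 and 2.21 CPM in KO 48 h livers, against 2.64, 71.3, 169 and 3.26 CPM in WT 48 h livers (log2 change -3.84, SE 1.44, edgeR adjusted p = 0.274). Fgf21 had 10.8, 2.97, 8.81 and 0.218 CPM in KO 48 h livers, against 16.7, 53.8, 34.7 and 0.952 CPM in WT 48 h livers (log2 change -2.31, SE 1.02, adjusted p = 0.377). Cyp4a10 had 80.9, 72.5, 56.6 and 21.1 CPM in KO 48 h livers, against 170.2, 644, 517 and 28.99 CPM in WT 48 h livers (log2 change -1.59, SE 0.77, adjusted p = 0.434). The high WT values in all 3 genes include both females, and the lowest WT liver of each lay within the KO range. The interaction at 48 h called 0 members by edgeR or DESeq2 and 0.0% of all genes by edgeR, with 6 members at an unadjusted p under 0.05 (7.7% of all genes), among them Vnn1 at -1.72 (SE 0.55, adjusted p = 0.394).

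At 7 d, 0 members were called against sham livers in KO or in WT livers, by edgeR or DESeq2, and 0.0% of all genes by edgeR. At an unadjusted p under 0.05 there were 0 members in KO livers (3.19% of all genes) and 2 in WT livers (6.1%). Between genotypes 0 members were called by edgeR or DESeq2 (0.045% of all genes by edgeR), and 3 had an unadjusted p under 0.05 (1.3%). The genotypes did not overlap for 12 members higher in KO livers (37.5%), against 6.38% of all genes, and for 1 lower, Echs1, against 6.55%. Cyp4a14 had 41.1, 68.4 and 65.4 CPM in KO 7 d livers, against 32.3, 1.38 and 0.211 CPM in WT 7 d livers (log2 change 3.27, SE 1.19, edgeR adjusted p = 1.0). Cyp4a10 had 73.4, 63.97 and 106 CPM in KO 7 d livers, against 60.7, 7.398 and 3.53 CPM in WT 7 d livers (95% interval of the log2 change 0.26 to 3.74, adjusted p = 1.0). Vnn1 had 22.7, 31.1 and 41.6 CPM in KO 7 d livers, against 20.8, 8.91 and 5.13 CPM in WT 7 d livers (log2 change 1.29, SE 0.48, adjusted p = 1.0). In all 3 genes the highest WT liver was the female, replicate 1, and the KO group held 2 females where the WT group held 1. The interaction at 7 d called 0 members by edgeR or DESeq2 and 0.0% of all genes by edgeR, with 0 members at an unadjusted p under 0.05 (2.23% of all genes).

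Sham livers of the genotypes overlapped for all 32 members, whereas 1.33% of all genes were higher and 0.726% lower in KO sham livers without overlap. In KO against WT sham livers 0 members were called by edgeR or DESeq2 (0.276% of all genes by edgeR), and 1 had an unadjusted p under 0.05 (12.8%). Ppara had 40.4, 24.1, 17.02, 82.4 and 58.4 CPM in KO sham livers and 90.97, 92.05, 59.5, 37.5 and 95.4 CPM in WT sham livers (log2 change -0.79, SE 0.40, edgeR adjusted p = 0.401). Cpt1a had 214, 153, 108, 264 and 428 CPM in KO sham livers and 279, 352, 347, 131 and 525 CPM in WT sham livers (log2 change -0.53, SE 0.32, adjusted p = 0.516). Ppara was called in 0 of the 19 comparisons with all livers in the fit, and so was Cpt1a.

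Averaged over the 5 stages, 1 member differed between genotypes, Acaa1b, higher in KO livers by a log2 change of 0.72 (SE 0.19, edgeR adjusted p = 0.0364), where 2.72% of all genes were called. This call held in 19 of 37 fits that each left out 1 liver, and the adjusted p reached 0.0866. The livers whose loss ended it were WT 6 h replicate 1, WT 24 h replicates 1 and 2, WT 48 h replicates 1 and 4, WT 7 d replicates 2 and 3, KO sham replicate 3, KO 6 h replicates 1 and 3, KO 24 h replicates 3 and 4, KO 48 h replicates 1 to 3 and KO 7 d replicates 1 to 3. It was also lost without the 6 h sham livers (adjusted p = 0.0508, from 8.43e-05 over 6 alternatives). Cyp4a14 at 1.65 (SE 0.48, adjusted p = 0.0549), Vnn1 at 0.63 (SE 0.19, adjusted p = 0.0685) and Abcd2 at 0.87 (SE 0.29, adjusted p = 0.0942) were called by DESeq2 and not by edgeR. No share of all genes is given for DESeq2.

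Sex moved 3 members, all lower in males than in females, where 3.59% of all genes were called. The medians and ranges given here pool all stages. Every liver taken 6 h after hepatectomy and both 6 h sham livers were male, so these values mix stage with sex. The fit had terms for group and sex. Cyp4a14 had a median of 69.3 CPM in 12 male KO livers and 126 CPM in 7 female KO livers, and of 5.48 CPM in 11 male WT livers and 216 CPM in 7 female WT livers. The log2 change of males over females was -2.94 (SE 0.60, edgeR adjusted p = 0.002). Abcd2 had a median of 8.31 CPM in male and 27.9 CPM in female KO livers, and of 3.02 CPM in male and 29.1 CPM in female WT livers (log2 change -1.98, SE 0.33, adjusted p = 0.000164). In WT livers the highest male value of Abcd2, 14.2 CPM, was below the lowest female value, 15.9 CPM. Vnn1 had a median of 24.2 CPM in male and 33.1 CPM in female KO livers, and of 13.4 CPM in male and 20.8 CPM in female WT livers (log2 change -0.90, SE 0.23, adjusted p = 0.0165). The 3 calls held in all 37 fits that each left out 1 liver.

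A longer list of 71 genes of fatty acid uptake, activation, storage and oxidation, of which 68 were tested, sets the members in their pathway. In KO 24 h against WT 24 h livers, 8 of the 68 were higher and 13 lower, where 18.6% of all genes were called. Hilpda, a lipid droplet protein that inhibits triglyceride hydrolysis, averaged 82.2 CPM in KO 24 h and 1.86 CPM in WT 24 h livers (log2 change 5.46, SE 1.14, edgeR adjusted p = 0.00301). Plin2, a coat protein of lipid droplets, averaged 2052 CPM in KO 24 h and 344 CPM in WT 24 h livers (log2 change 2.59, SE 0.64, adjusted p = 0.00754). Acacb, the carboxylase whose product malonyl-CoA inhibits Cpt1a, was lower, with 15.9 CPM in KO 24 h and 34.2 CPM in WT 24 h livers (log2 change -1.17, SE 0.31, adjusted p = 0.0124). At 6 h, Hilpda was higher than in sham livers by 5.32 (SE 0.94, adjusted p = 0.00084) in KO and 4.89 (SE 0.95, adjusted p = 0.00319) in WT livers.

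Against sham livers, the 68 genes gave 5 higher and 0 lower calls in KO 6 h livers, where 6.62% of all genes were called, and 5 higher and 2 lower in WT 6 h livers (7.86% of all genes). At 24 h there were 8 higher and 17 lower in KO livers (28.0% of all genes) and 0 higher and 3 lower in WT livers (0.925%). At 48 h there were 0 higher and 2 lower in KO livers (3.0% of all genes) and 9 higher and 9 lower in WT livers (8.29%). Acacb was lower at 48 h in both, by -2.49 (SE 0.30, edgeR adjusted p = 3.01e-05) in KO and -2.37 (SE 0.29, adjusted p = 1.61e-05) in WT livers. Cyp4a31, another omega hydroxylase, averaged 100.2 CPM in WT 48 h and 5.53 CPM in WT sham livers (log2 change 4.25, SE 0.62, adjusted p = 0.00012). At 7 d edgeR gave 0 calls in either genotype and 0.0% of all genes, with 3 of the 68 at an unadjusted p under 0.05 in KO livers (3.19% of all genes) and 0 in WT livers (6.1%). Averaged over stages, where 2.72% of all genes were called, Pparg was higher in KO livers (log2 change 0.48, SE 0.13, adjusted p = 0.0411) and Acacb lower (log2 change -0.67, SE 0.14, adjusted p = 0.00518). Between the sexes 4 were higher and 2 lower in males, where 3.59% of all genes were called. Cyp4a12a, an omega hydroxylase known as male-specific in mice, was higher in males by 9.16 (SE 0.64, adjusted p = 2.59e-12), the direction opposite to Cyp4a14.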

How the data were processed

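Whole-liver RNA was sequenced from stranded mRNA libraries, per the labels' protocols. The deposited table holds expected counts per gene; the authors' processing notes name STAR 2.5.3a, RSEM 1.3.0 and GRCm38, with no role for each. How strand was used in counting is not given in the sources used here. Here the expected counts were rounded and tested with edgeR 4.0.16 (robust quasi-likelihood, TMM scaling, filterByExpr) in R 4.3.3. All 37 libraries entered 1 fit of group and sex, with Benjamini-Hochberg adjustment over 15564 genes and a threshold of 0.05. CPM used TMM-scaled library totals. Totals of 26232544 to 48827025 make counting error small beside the spread between livers for most values of the members. The common coefficient of variation between livers was 0.39. The lowest values, such as 0.211 CPM for Cyp4a14 and 0.181 CPM for Pdk4 in WT 7 d replicate 3, rest on few reads. For these, counting error is not small. The closest replicates, KO 48 h replicates 1 and 2, had counts far apart for sampling noise (chi-square over degrees of freedom 32.1). The fit was tested on simulated data. Alternatives were DESeq2 1.42.0, RLE scaling, no low-count filter, no sex term, the compared groups alone, males alone, no 6 h sham livers, and each liver left out. Members and lists were chosen with earlier results of these data known. Members past the threshold were counted and named, with up to 12 per comparison, and 13 further members could be named throughout; at most 10 genes of the longer list were named per comparison, those with the smallest p. Named values for Acaa1a, Acads, Hadhb and other members shown as context were chosen after their values were seen.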

Additional observations from a re-analysis of the deposited data

Results flagged for a closer look

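In groups of 4 or 5 livers, 14 of 160 gene and group combinations had 1 liver far from the others, where chance flags about 1 in 20. The combinations share the same livers and are not independent, and an excess over that rate was not tested. KO 48 h replicate 4, the only female of its group, was the low liver for Slc25a20 (55.5 CPM), Acadvl (177 CPM), Hadha (139 CPM), Acaa1b (147 CPM) and Creb3l3 (122 CPM). KO 48 h replicate 3 was low for Ppara, at 19.7 CPM. KO sham replicate 5, the sham liver taken at 6 h, was high for Hadhb (185 CPM) and Eci2 (304.9 CPM), and KO sham replicate 1 was low for Vnn1, at 11.5 CPM. WT 48 h replicate 1 was low for Ppara, at 26.1 CPM, and WT 48 h replicate 4 for Angptl4, at 24.6 CPM. WT sham replicate 3, taken at 24 h, was low for Acaa1b (169.6 CPM) and Ehhadh (78.8 CPM). WT sham replicate 5, taken at 6 h, was low for Bdh1, at 100.9 CPM.

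The response of Acaa1b to hepatectomy at 24 h differed between genotypes, with an interaction of 2.14 on the log2 scale (SE 0.57, edgeR quasi-likelihood adjusted p = 0.0227). It was the only member called, where 8.47% of all genes were called. The call was lost without KO 24 h replicate 3 or 4 or WT 24 h replicate 3.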

How the results depend on the processing

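No paired analysis was possible because the labels give no replicate numbers. No call of a single member changed direction in an alternative that was run. Members that were not called could, and without the 6 h sham livers Cyp4a10, Acaa1a and Acads in WT 6 h livers and Echs1 in KO 6 h livers had values above 0 where they lay below 0 with them. Of the calls of single members, 96 were kept and 26 lost over the alternatives other than leaving out 1 liver, and 228 were kept and 56 lost over fits without 1 liver. The cause was not tested.

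Shares of all genes are given above for the main fit. For the fit without the 6 h sham livers, shares or counts are given at 6 h and in KO 24 h livers, against sham livers. For the other settings, here, above and below, they are not given. A change in a count of members therefore cannot be told from a change over all genes. Members called in KO 6 h against KO sham livers numbered 2, and 5 by DESeq2, 1 with the compared groups alone, 1 in males alone, 7 with no low-count filter, 4 with no sex term and 14 without the 6 h sham livers. In WT 6 h livers there were 2, and 0 with the compared groups alone, 0 in males alone and 6 without the 6 h sham livers. In KO 24 h livers there were 2, and 4 by DESeq2, 4 in males alone, 7 with no filter, 1 with no sex term and 7 without the 6 h sham livers. In WT 24 h livers there was 1, and 2 by DESeq2, 0 with the compared groups alone, 5 with no filter and 0 with no sex term. In WT 48 h livers there were 6, and 2 with the compared groups alone and 1 in males alone. With no filter, counts of 0 became 1 in KO 48 h, 2 in KO 7 d and 4 in WT 7 d livers.

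Between genotypes with no filter, 5 were called in sham livers, 5 at 6 h, 5 at 24 h, 3 at 48 h, 4 at 7 d and 6 on average. The interactions with no filter gave 4 at 6 h, 4 at 24 h, 6 at 48 h and 1 at 7 d, and sex 5. Shares of all genes under that setting are not given beside these counts. DESeq2 gave 2 at 6 h, 2 at 24 h, 4 on average and 2 in the interaction at 24 h. At 24 h, males alone gave 2 and the compared groups alone 0. On average, males alone gave 2 and the fit without the 6 h sham livers 0.

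Without 1 liver, the counts ran from 0 to 8 in KO 6 h, 0 to 5 in WT 6 h, 2 to 6 in KO 24 h, 0 to 1 in WT 24 h, 0 to 1 in KO 48 h and 3 to 7 in WT 48 h livers against sham livers, and stayed at 0 at 7 d in both genotypes. Between genotypes they ran from 1 to 5 at 24 h and 0 to 4 on average, and stayed at 0 in sham livers and at 6 h, 48 h and 7 d. The interaction ran from 0 to 2 at 24 h and stayed at 0 at 6 h, 48 h and 7 d, and sex from 3 to 4. Leaving out the filter moved the median log2 change of all genes by -0.10 in WT 6 h livers.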
